A study of Homo sapiens with 3 samples.

Results

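The alpha and beta tubulin genes encode the building blocks of microtubules, and their transcripts were followed one by one in the human pancreatic cancer line MIAPaCa-2. The members were the rows of the expression table whose symbol was on a list of 10 genes, of which 9 had a row among the 14949 genes: the alpha tubulins TUBA1A, TUBA1B and TUBA1C and the beta tubulins TUBB, TUBB2A, TUBB2B, TUBB3, TUBB4B and TUBB6. TUBA4A had no row and was not analysed here. RNA sequencing had been performed on 3 cultures: untreated cells with a control short hairpin RNA (sh-CTL, here the control library), untreated cells with a short hairpin RNA against METTL3 (sh-METTL3, the knockdown library), and control cells given NMS-P937, which inhibits PLK1, at 80 nM over 24 h (sh-CTL + PLK1i, the inhibitor library). METTL3 is the catalytic subunit of the m6A RNA methyltransferase, and PLK1 is a kinase of mitosis that acts on centrosomes, spindle and kinetochores. Both arms were read against the same sh-CTL culture. One knockdown line stood for the METTL3 knockdown, and 1 library stood for each group, so that each difference is one between 2 libraries, without a replicate check, a test or a p-value.

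The targeted gene was read first. METTL3 had 3378 reads in the control library, 1781 in the knockdown library and 4223 in the inhibitor library, which left the knockdown library with 41.9% of the control level after normalization. PLK1 stood at 64.9% of the control library in the knockdown library and at 106% in the inhibitor library. Reads in the listed genes numbered 37449251 in the control library, 46944861 in the knockdown library and 47727600 in the inhibitor library. Of 6 epithelial markers, KRT8, KRT18 and KRT19 had rows, while KRT7, EPCAM and CDH1 had none. VIM and ZEB1 were the listed ones of 4 mesenchymal markers. None of 5 acinar, 4 endocrine and 4 blood or endothelial markers had a row, and 1 of 5 neuronal markers, SYP, had one.

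One alpha and one beta tubulin chain form a heterodimer, and the heterodimers assemble head to tail into the wall of the microtubule. Humans carry several genes for each chain. The proteins, called isotypes, are nearly alike in the folded body and differ most in the acidic tail at the carboxyl end, where enzymes add or remove glutamate and other groups and where motors and microtubule-associated proteins bind. New chains are folded by prefoldin, the chaperonin CCT and the tubulin folding cofactors. Cells also watch the pool of free dimers: when it grows, TTC5 binds the first residues of a tubulin chain as it leaves the ribosome, and SCAPER and the CCR4-NOT deadenylase then degrade the mRNA being translated.

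By the GENCODE annotation on GRCh37, each canonical member transcript has 4 exons. Chromosome 12 holds the 3 alpha genes side by side: TUBA1B (ENSG00000123416) at 49521565 to 49525180 on the minus strand, TUBA1A (ENSG00000167552) at 49578469 to 49582863 on the minus strand and TUBA1C (ENSG00000167553) at 49582519 to 49668383 on the plus strand. Chromosome 6 holds TUBB2A (ENSG00000137267) at 3153731 to 3157778 on the minus strand, TUBB2B (ENSG00000137285) at 3223558 to 3231964 on the minus strand and, farther along, TUBB (ENSG00000196230) at 30685212 to 30693315 on the plus strand. The others are alone: TUBB3 (ENSG00000258947) at 89987800 to 90005169 on the plus strand of chromosome 16, TUBB4B (ENSG00000188229) at 140135739 to 140138159 on the plus strand of chromosome 9 and TUBB6 (ENSG00000176014) at 12307668 to 12344319 on the plus strand of chromosome 18.

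The start of the coding sequence is shown because it encodes the first residues of the chain, which TTC5 binds. The first 30 coding bases of the canonical transcripts, taken from the GENCODE transcripts on GRCh37, run as follows, with the first 12 bases in capitals. These 4 codons encode methionine, arginine and glutamate, followed by cysteine in alpha tubulins and isoleucine in beta tubulins. TUBA1A and TUBA1C had the same 30 bases as TUBA1B.
TUBA1B coding start: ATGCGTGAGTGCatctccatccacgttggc
TUBB coding start: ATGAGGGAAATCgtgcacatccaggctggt
TUBB2A coding start: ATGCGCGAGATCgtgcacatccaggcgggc
TUBB2B coding start: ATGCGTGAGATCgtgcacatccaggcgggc
TUBB3 coding start: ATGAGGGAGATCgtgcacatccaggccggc
TUBB4B coding start: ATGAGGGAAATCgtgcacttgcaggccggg
TUBB6 coding start: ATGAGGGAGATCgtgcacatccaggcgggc

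All 9 members carried this start, in 5 spellings. The 3 alpha genes shared one spelling, TUBB had the spelling of TUBB4B, and TUBB3 that of TUBB6, while TUBB2A and TUBB2B each had their own.

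The other end of the coding sequence is where the isotypes part. The last 60 coding bases before the stop codon are given below for the beta tubulins, with the glutamate codons in capitals. TUBB2B differed from TUBB2A with 98.3% identity.
TUBB coding end: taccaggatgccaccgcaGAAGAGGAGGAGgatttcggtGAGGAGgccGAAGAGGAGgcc
TUBB2A coding end: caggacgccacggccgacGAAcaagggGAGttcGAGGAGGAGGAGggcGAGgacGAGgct
TUBB3 coding end: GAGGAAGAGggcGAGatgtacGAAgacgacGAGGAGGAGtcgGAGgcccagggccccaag
TUBB4B coding end: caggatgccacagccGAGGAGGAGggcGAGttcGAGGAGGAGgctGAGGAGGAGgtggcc
TUBB6 coding end: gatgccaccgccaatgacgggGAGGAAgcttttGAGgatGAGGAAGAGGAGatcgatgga

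Of these 20 codons, 10 encoded glutamate in TUBB4B, 9 in TUBB and TUBB3, 8 in TUBB2A and 7 in TUBB6. Over the whole coding sequence, identity was 95.9% to 97.2% in the 3 alpha pairs and 80.9% to 98.2% in the 15 beta pairs. In the last 60 bases it went down to 46.7% among beta pairs, between TUBB3 and TUBB6.

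Tubulin transcripts were abundant in each library. The 9 members together took 0.916% of the reads in the control library, 0.936% in the knockdown library and 0.801% in the inhibitor library. Per kilobase of canonical transcript, TUBA1B ranked 30 among 14675 genes in the control library, 34 in the knockdown library and 31 in the inhibitor library. TUBB ranked 36, 39 and 65 in the same order. The lowest member on this scale was TUBA1A, at rank 1023, 1759 and 967.

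**Figure D1:**
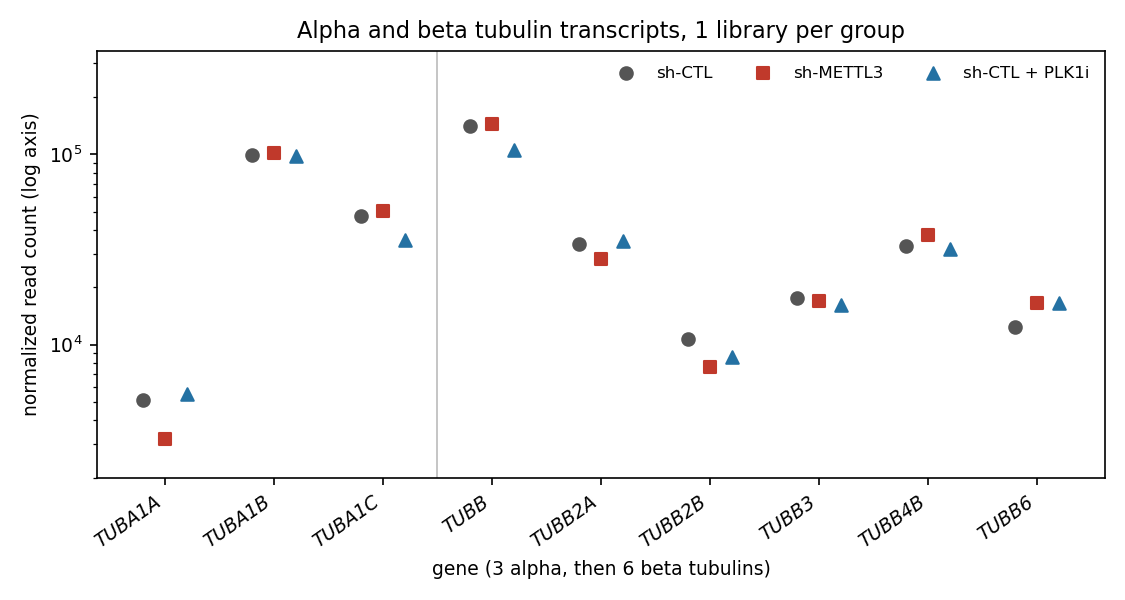
Normalized read count (log axis) of each of the 9 tubulin genes in sh-CTL (circles), sh-METTL3 (squares) and sh-CTL + PLK1i (triangles), 1 library each and therefore without error bars. TUBB and TUBA1C lay lowest in sh-CTL + PLK1i, TUBA1A and TUBB2B lay lowest in sh-METTL3, and TUBB6 was higher in both than in sh-CTL.

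Normalized counts below are reads divided by the size factor of the library, as in the deposited table. Changes are differences of log2(normalized count + 1) against the control library, with the 95% interval that counting error allows in brackets. The intervals cover counting error only, not the variation between cultures. In bulk RNA, fewer cells with a transcript and less of it per cell cannot be told apart.

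The comparison of the knockdown library with the control library asked which transcripts differ when METTL3 is reduced. No tubulin gene changed by 2-fold: 0 of 9 were at least 2-fold higher, against 3.42% of all genes, and 0 were at least 2-fold lower, against 2.94%. At 1.5-fold, 1 of 9 was lower, TUBA1A, against 6.70% of all genes, and none was higher, against 7.76%. At 1.2-fold, TUBA1A and TUBB2B were lower, 2 of 9 against 18.2% of all genes, and TUBB6 was higher, 1 of 9 against 19.1%. The median change of the members was 0.03, beside 0.0013 for all genes, and the members ranged from -0.69 to 0.42. The counting interval lay above 0 for 5 members and below 0 for 4, where 27.1% and 28.2% of all genes did so. Intervals narrow as reads increase, so that even TUBA1B, with a change of 0.03, lay outside 0. All genes include many with few reads and wide intervals, and the share among abundant genes alone was not computed.

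The comparison of the inhibitor library with the control library asked which transcripts differ after the kinase is inhibited. Again 0 of 9 members were 2-fold higher or lower, against 1.39% and 1.13% of all genes. None reached 1.5-fold, against 3.98% higher and 4.01% lower. At 1.2-fold, TUBA1C, TUBB and TUBB2B were lower, 3 of 9 against 14.4% of all genes, and TUBB6 was higher, 1 of 9 against 13.2%. The median of the members was -0.05, beside 0.0024 for all genes, with a range from -0.43 to 0.42. Intervals lay above 0 for 3 members and below 0 for 6, against 23.1% and 22.8% of all genes. Here too the shares of all genes include genes with few reads, whose intervals are wider than those of the members.

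**Figure D2:**
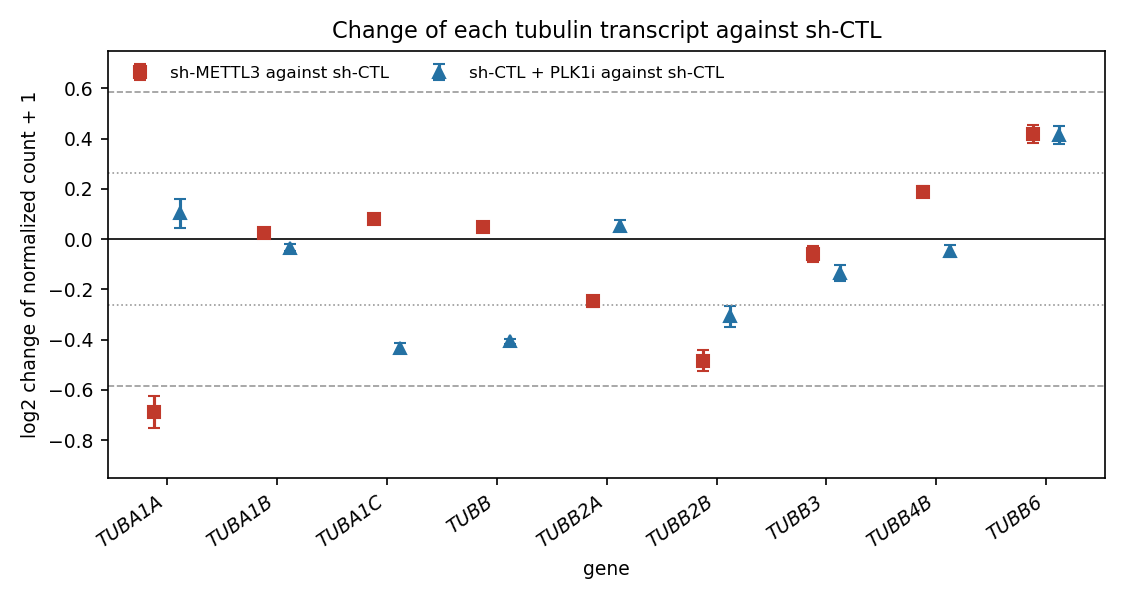
Log2 change of normalized count + 1 against sh-CTL for each tubulin gene, in sh-METTL3 (squares) and in sh-CTL + PLK1i (triangles). Bars are 95% counting intervals, dotted lines mark 1.2-fold and dashed lines 1.5-fold. TUBA1A at -0.69 was the only point beyond a dashed line.

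All 9 members are abundant, and abundant genes moved less than others. Among the 7150 abundant genes, those whose mean normalized count reached 1000, 5.10% were at least 1.2-fold lower in the inhibitor library and 5.41% at least 1.2-fold higher. In the knockdown library, 12.1% of them were at least 1.2-fold lower and 8.46% higher. At 1.5-fold, 2.18% were lower and 1.58% higher in the knockdown library, and 0.140% and 0.364% in the inhibitor library. At 2-fold, 0.503% were lower and 0.503% higher in the knockdown library, and 0 and 0.0420% in the inhibitor library.

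TUBB encodes the main beta isotype of dividing cells and was the most abundant member by reads. It had a normalized count of 140174 in the control library, 144876 in the knockdown library and 105695 in the inhibitor library. The inhibitor library was the low one, and the other two lay close together. The change was -0.41 (-0.42 to -0.40) in the inhibitor library, to 75.4% of the control level, and 0.05 (0.04 to 0.06) in the knockdown library. Of the abundant genes, 1.33% were lower by at least as much as TUBB in the inhibitor library.

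TUBA1C, an alpha isotype that is also expressed widely in growing cells, had the same order. Its normalized count was 47620 in the control library, 50381 in the knockdown library and 35284 in the inhibitor library. The change was -0.43 (-0.45 to -0.41) in the inhibitor library, to 74.1% of the control library, and 0.08 (0.06 to 0.10) in the knockdown library. In the inhibitor arm, 1.03% of the abundant genes were lower by at least this much. TUBA1C and TUBB were thus the lowest and the second lowest of the 9 members in that arm.

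TUBA1B, the main alpha isotype of most cells, differed little between libraries. Its normalized count was 99792 in the control library, 101579 in the knockdown library and 97488 in the inhibitor library. Against the control library the change was 0.03 (0.01 to 0.04) in the knockdown library and -0.03 (-0.05 to -0.02) in the inhibitor library. It is encoded beside TUBA1A and TUBA1C on chromosome 12, and the 3 neighbours did not move together.

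TUBA1A, the alpha isotype best known from neurons and brain development, was the least abundant member. It had a normalized count of 5119 in the control library, 3179 in the knockdown library and 5496 in the inhibitor library. The knockdown library was the low one. The change was -0.69 (-0.75 to -0.62) in the knockdown library, to 62.1% of the control library, and 0.10 (0.05 to 0.16) in the inhibitor library. Among the abundant genes, 1.38% were lower by at least this much in the knockdown library.

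TUBB2A and TUBB2B are close copies that lie next to each other on chromosome 6 and are prominent in neurons. The normalized count of TUBB2A was 33653 in the control library, 28335 in the knockdown library and 34910 in the inhibitor library. Its change was -0.25 (-0.27 to -0.22) in the knockdown library and 0.05 (0.03 to 0.08) in the inhibitor library. For TUBB2B the normalized counts were 10703, 7654 and 8654 in the same order, so that the control library was the high library. TUBB2B changed by -0.48 (-0.53 to -0.44) in the knockdown library and by -0.31 (-0.35 to -0.26) in the inhibitor library. The pair was lower together in the knockdown library and went apart in the inhibitor library.

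TUBB3, the beta isotype used as a neuronal marker and found in many carcinomas, kept close to its control level. Its normalized count was 17661 in the control library, 16964 in the knockdown library and 16075 in the inhibitor library. The changes were -0.06 (-0.09 to -0.03) and -0.14 (-0.17 to -0.10). TUBB4B, a beta isotype of most tissues that also serves in cilia, had 32967, 37577 and 31923 in the same order. The knockdown library was its high one, with a change of 0.19 (0.17 to 0.21), and in the inhibitor library the change was -0.05 (-0.07 to -0.02).

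TUBB6, a more divergent beta isotype known to disturb microtubule organisation when abundant, stood out in the other direction. Its normalized count was 12421 in the control library, 16605 in the knockdown library and 16563 in the inhibitor library. The control library was the low library and the other two were nearly equal. TUBB6 changed by 0.42 (0.38 to 0.45) in the knockdown library, to 134% of the control library, and by 0.42 (0.38 to 0.45) in the inhibitor library, to 133%. Both values rest on the same control library. Of the abundant genes, 3.47% were higher by at least as much in the knockdown library and 1.17% in the inhibitor library.

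The regions upstream of TUBB, TUBA1C and TUBB6 are shown because these members had the largest changes in the inhibitor arm. The 250 bases before an annotated start were taken from RefSeq on GRCh38.p14: chr6:30720102-30720351 for TUBB, chr12:49264832-49265081 for TUBA1C and chr18:12307991-12308240 for TUBB6, all on the plus strand. TUBB and TUBB6 each had 1 more window and TUBA1C had 2 more, and the window with the most matches was chosen after its letters were seen. Capitals mark the CCAAT box (CCAAT or ATTGG on either strand), the CHR element of cell cycle genes (TTTGAA on either strand, or TTCGAA, which is its own complement) and the TATA box (TATAA on the plus strand of the gene). The 3 motifs do not share letters in these windows.
TUBB upstream region: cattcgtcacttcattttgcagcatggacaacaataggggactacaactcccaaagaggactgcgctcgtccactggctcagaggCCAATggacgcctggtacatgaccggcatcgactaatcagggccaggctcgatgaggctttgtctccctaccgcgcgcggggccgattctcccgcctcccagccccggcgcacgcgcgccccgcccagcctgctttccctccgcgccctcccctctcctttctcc
TUBA1C upstream region: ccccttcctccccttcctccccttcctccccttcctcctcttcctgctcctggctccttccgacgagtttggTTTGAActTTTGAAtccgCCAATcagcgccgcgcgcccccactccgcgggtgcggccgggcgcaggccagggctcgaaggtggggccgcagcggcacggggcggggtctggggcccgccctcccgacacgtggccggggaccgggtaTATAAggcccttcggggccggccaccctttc
TUBB6 upstream region: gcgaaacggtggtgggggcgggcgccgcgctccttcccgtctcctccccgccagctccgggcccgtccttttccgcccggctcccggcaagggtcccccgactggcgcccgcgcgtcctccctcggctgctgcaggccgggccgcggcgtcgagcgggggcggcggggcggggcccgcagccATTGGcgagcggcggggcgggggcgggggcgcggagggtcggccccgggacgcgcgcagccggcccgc

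The TUBA1C window held a pair of CHR letters, a CCAAT box and a TATA box. The TUBB and TUBB6 windows shown each held 1 CCAAT box, which for TUBB6 was in the reverse orientation, and their other windows held none of the 3 motifs. Both other TUBA1C windows overlap and held the same CCAAT box, and 1 of them a CHR element. In all, 14 windows were found for the 9 members. A CCAAT box was in 9 of the 14, with the box of the overlapping TUBA1C windows counted in each. A CHR element was in 4 (of TUBA1C, TUBB3 and TUBB4B) and a TATA box in 4. By gene, 7 of the 9 members had a CCAAT box in at least 1 window. Of 35116 windows of this length, 32.01% held CCAAT, 14.3% CHR and 13.6% TATAA. These are letter matches only, and no binding was measured.

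The pools of alpha and beta transcripts were then summed. Alpha members together had a normalized count of 152531 in the control library, 155139 in the knockdown library and 138268 in the inhibitor library. Beta members together had 247579, 252011 and 213820. In the knockdown library the 2 pools stood at 101.7% and 101.8% of the control library. In the inhibitor library the alpha pool stood at 90.6% of the control library, a log2 change of -0.14 (-0.15 to -0.13), and the beta pool at 86.4%, a change of -0.21 (-0.22 to -0.20).

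A few genes carried these pool differences. In the inhibitor library the beta pool differed from the control library by a normalized count of -33759, TUBB alone by -34479 and TUBB6 by 4141. The alpha pool differed by -14263, and TUBA1C alone by -12336. In the knockdown library the pools stayed level while their members went opposite ways: the difference was -5318 for TUBB2A and -3049 for TUBB2B, whereas it was 4702 for TUBB, 4610 for TUBB4B and 4184 for TUBB6.

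The make-up of each pool was computed per kilobase of the longest annotated transcript. On this scale TUBB held 49.9% of the beta level in the control library, 49.98% in the knockdown library and 42.3% in the inhibitor library. TUBB6 held 6.97%, 9.04% and 10.4% in the same order. TUBB2A went from 15.8% in the control library to 12.9% in the knockdown library and 18.4% in the inhibitor library. The beta pool was thus less dominated by TUBB after the inhibitor, while in the knockdown library its largest share was level.

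Among alpha tubulins, TUBA1B held 62.4% of the level in the control library, 62.5% in the knockdown library and 67.6% in the inhibitor library. TUBA1C held 33.7%, 35.1% and 27.7%. TUBA1A held 3.89%, 2.38% and 4.64%. The longest annotated transcripts include retained introns, and the shares depend on that choice of length. With the canonical transcript, TUBB held 46.4%, 47.2% and 39.4% of the beta level and TUBA1B 75.5%, 76.0% and 79.1% of the alpha level. The order of the 3 libraries was the same on both scales. With the median length of coding transcripts, TUBB held 37.3%, 37.2% and 30.2%, so that the control and knockdown libraries changed places.

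**Figure D3:**
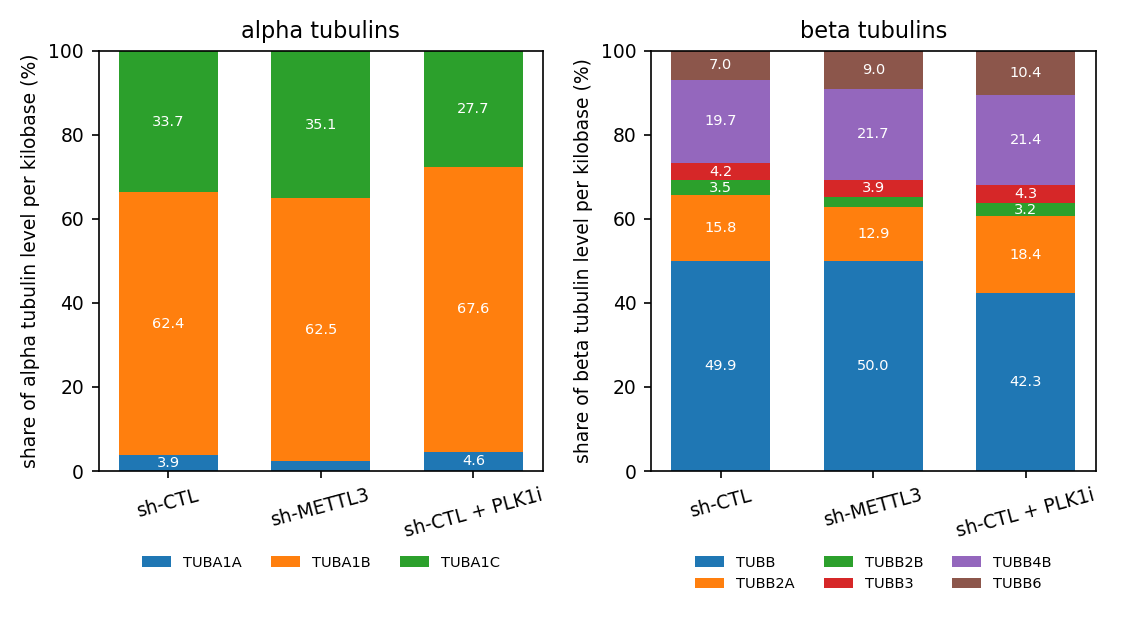
Share of each alpha tubulin (left) and each beta tubulin (right) in the summed level per kilobase of the longest annotated transcript, in percent, for the 3 libraries. TUBB went from 49.9% in sh-CTL to 42.3% in sh-CTL + PLK1i, and TUBA1C from 33.7% to 27.7%.

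The shares in plain reads have counting intervals (exact binomial, 95%). TUBB took 56.6% of the beta reads in the control library (56.4% to 56.8%), 57.5% in the knockdown library (57.3% to 57.7%) and 49.4% in the inhibitor library (49.2% to 49.6%). TUBB6 took 5.02% (4.92% to 5.11%), 6.59% (6.50% to 6.68%) and 7.75% (7.64% to 7.86%). The intervals of TUBB and TUBB6 did not overlap between libraries, but with this many reads even small differences between 2 libraries separate them. Some others did overlap. TUBA1B took 65.17% to 65.68% of the alpha reads in the control library and 65.25% to 65.70% in the knockdown library. TUBB4B took 14.78% to 15.05% of the beta reads in the knockdown library and 14.79% to 15.08% in the inhibitor library.

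Reads from near-identical copies can be divided between genes by the counting, so the copies were compared by sequence. In windows of 100 bases, 55.6% of the TUBB2A transcript and 48.7% of the TUBB2B transcript occurred in transcripts of other genes, mainly in each other. The share was 37.2% for TUBA1B, 21.2% for TUBA1A and 12.3% for TUBA1C, again mainly within the trio. It was 5.42% for TUBB, from the pseudogene TUBBP1, 3.01% for TUBB4B and 0 for TUBB6. For TUBB3 it was 92.5%, because an annotated read-through gene (ENSG00000198211), which had no row, contains it. Windows of 50 bases gave larger shares: 1.09% for TUBB6, 10.4% for TUBB4B, 19.3% for TUBB and 26.7% for TUBA1C. They gave 47.3% for TUBA1A, 54.9% for TUBB2B, 62.7% for TUBA1B and 64.6% for TUBB2A. The values of TUBB6, TUBB4B and TUBB are thus the least open to shared reads, though not free of them. Those of TUBB2A, TUBB2B and TUBA1A are the most uncertain among the members with changes.

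Summing the copies gives a coarser value that a division of reads among the summed genes cannot change. Windows shared with genes outside the sums, such as TUBB2BP1 and TUBAP2, remain. TUBB2A and TUBB2B together changed by -0.30 in the knockdown library and by -0.03 in the inhibitor library. TUBA1A, TUBA1B and TUBA1C together changed by 0.02 and -0.14. TUBB with TUBBP1 moved no differently from TUBB alone, since TUBBP1 had 375, 450 and 474 reads against 120208, 156302 and 114810 for TUBB. AFG3L2, a mitochondrial protease gene that overlaps TUBB6 on the opposite strand, had 6066, 9827 and 7778 reads. The libraries were stranded, but whether the counting used the strand is not given in the sources used here.

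The 4 other alpha and beta tubulin genes in the table each had fewer reads than any member. TUBB4A, a brain isotype, had 1068 reads in the control library, 1122 in the knockdown library and 1184 in the inhibitor library, with changes of -0.26 (-0.38 to -0.14) and -0.19 (-0.31 to -0.07). TUBA8 had 20, 15 and 24 reads, and both its intervals included 0. TUBB8, known from oocytes, had 35, 41 and 19 reads and changed by -1.18 (-2.11 to -0.38) in the inhibitor library. The pseudogene TUBA3FP had 294, 311 and 156 reads and changed by -0.25 (-0.48 to -0.02) and -1.25 (-1.54 to -0.97). Of these 4 genes, 0 were 2-fold lower in the knockdown library, against 2.94% of all genes, and 2 were so in the inhibitor library, against 1.13%: TUBB8, on few reads, and the pseudogene TUBA3FP.

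Among the listed pseudogenes, TUBA5P changed by -0.10 (-0.43 to 0.24) in the knockdown library and -0.53 (-0.90 to -0.18) in the inhibitor library. TUBAP2, TUBB2BP1, TUBBP1 and TUBBP10 had intervals that included 0 in both comparisons, with 11 to 474 reads.

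The surroundings of each member were described by the listed genes nearest to it, 10 on each side whose mean normalized count reached 50. For TUBB6 on chromosome 18, 19 of the 20 neighbours were above 0 in the knockdown library, with a median of 0.39 beside 0.42 for TUBB6. Over the 173 such genes of the whole chromosome the median was -0.13 and 42.2% were above 0. Of the 12818 such genes of all chromosomes, 49.4% were above 0. In the inhibitor library the median of the same 20 neighbours was 0.01, and TUBB6 at 0.42 exceeded the highest of them, at 0.28. The share of the surrounding stretch in the TUBB6 value of the knockdown library was not tested.

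For TUBB4B on chromosome 9, 17 of the 20 neighbours were above 0 in the knockdown library, with a median of 0.15 beside 0.19 for the gene. Of the 516 such genes of the whole chromosome, 70.5% were above 0, with a median of 0.105, against 49.4% on all chromosomes. In the inhibitor library TUBB was at -0.41 beside a neighbour median of -0.02 and inside the range of its neighbours, which began at -0.52. TUBA1C was at -0.43 beside a median of -0.03, lower than each of its 20 neighbours. TUBA1A at -0.69 in the knockdown library lay far below the neighbour median of -0.12 but inside their range, which began at -0.73.

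**Figure D4:**
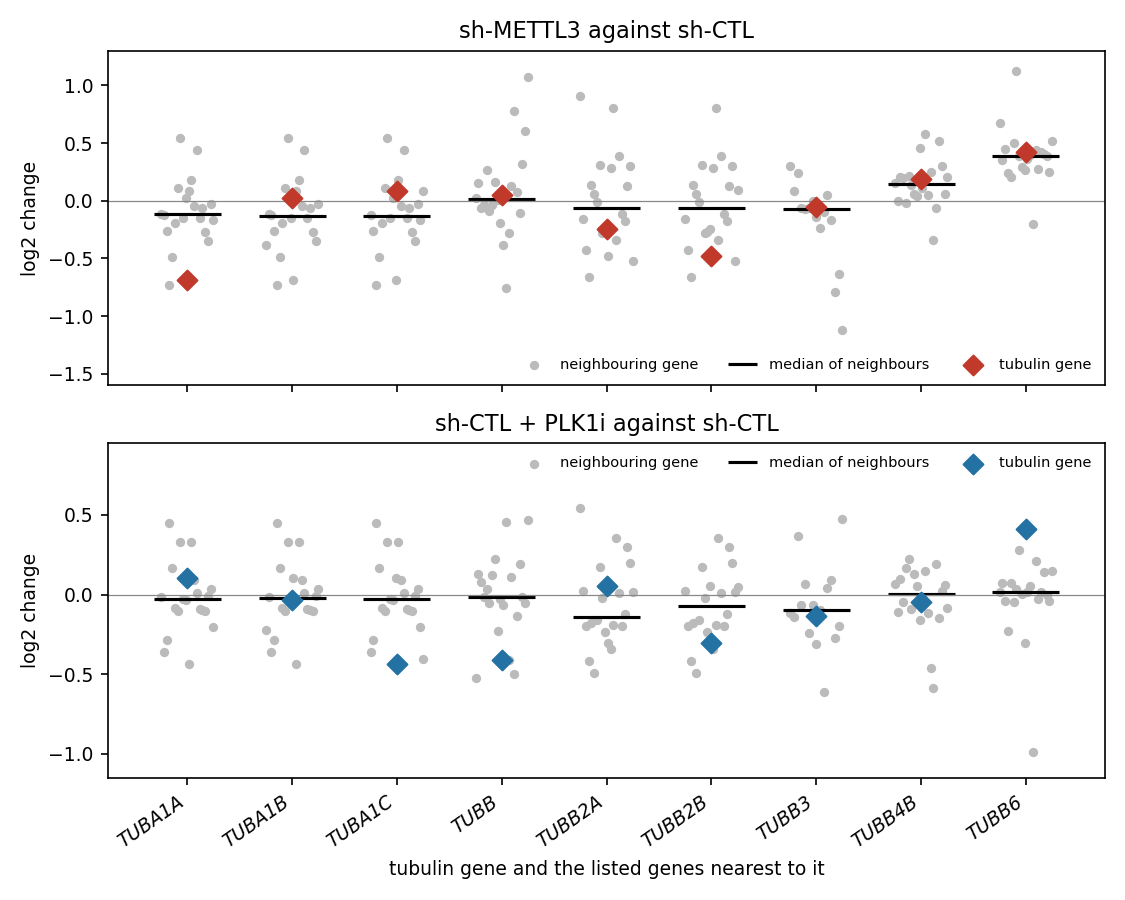
Log2 change of each tubulin gene (diamonds), of up to 20 listed genes nearest to it (grey points) and the median of those genes (black line), in sh-METTL3 (top) and in sh-CTL + PLK1i (bottom). TUBB6 sat on the median of its neighbours in sh-METTL3 and above all of them in sh-CTL + PLK1i, where TUBA1C lay below all of its own.

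All 8 CCT chaperonin subunits, which fold tubulin, were listed, and 0 changed by 2-fold, where 6.37% of all genes did so in the knockdown library and 2.52% in the inhibitor library. At 1.2-fold, 1 of 8 was past the fold in the knockdown library, against 37.2% of all genes, and 0 in the inhibitor library, against 27.6%. The gene past it was CCT6A. It had the largest change in the knockdown library, with 31465 reads in the control library and 32409 in the knockdown library, a change of -0.29 (-0.31 to -0.27). CCT3 had the largest in the inhibitor library, at -0.15 (-0.17 to -0.12). The CCT medians were 0.0071 and -0.01 in the 2 comparisons. All 8 are abundant genes, a group that moved less than all genes. At 1.2-fold, 8.46% of the abundant genes were higher and 12.1% lower in the knockdown library, and 5.41% and 5.10% in the inhibitor library.

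Of 6 prefoldin subunits, 0 reached 1.2-fold in either comparison, against the same 37.2% and 27.6% of all genes and smaller shares of abundant genes. The largest changes were 0.14 (0.07 to 0.21) for PFDN5 in the knockdown library and 0.19 (0.11 to 0.28) for PFDN2 in the inhibitor library. Of 6 folding cofactors, 0 reached 1.2-fold either. TBCD, which works on beta tubulin, was lower in both, by -0.24 (-0.29 to -0.20) and -0.18 (-0.22 to -0.13).

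The genes of tubulin mRNA autoregulation were fully listed, 12 of 12, and 0 reached 1.2-fold, against 37.2% and 27.6% of all genes. The shares among abundant genes, given above, were smaller. In the inhibitor library, 11 of the 12 were below 0, as were 7387 of all 14949 genes, and the median was -0.05 beside 0.0024 for all genes. The counting interval lay below 0 for 4 of the 12, CNOT1, CNOT2, CNOT6L and CNOT8, against 22.8% of all genes. In the knockdown library 5 of the 12 were below 0, with a median of 0.05. TTC5, the reader of the nascent chain, named here for that role, had 494, 537 and 565 reads. It changed by -0.21 (-0.39 to -0.03) in the knockdown library and by -0.15 (-0.32 to 0.03) in the inhibitor library, where the interval included 0. CNOT6L and CNOT8, deadenylase subunits, changed by 0.22 (0.10 to 0.33) and 0.13 (0.04 to 0.21) in the knockdown library and by -0.16 (-0.28 to -0.04) and -0.19 (-0.28 to -0.10) in the inhibitor library.

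Gamma tubulin nucleates microtubules at centrosomes. Of 11 listed genes of its complex, 1 was at least 1.2-fold higher in the knockdown library, against 19.1% of all genes, and 0 in the inhibitor library, against 13.2%. The former was NEDD1, the factor that anchors the complex, at 0.34 (0.25 to 0.42), with 0.01 (-0.08 to 0.10) in the inhibitor library. TUBG1 changed by 0.02 and 0.12, TUBG2 by -0.18 and 0.11. TUBGCP2 changed by 0.15 (0.10 to 0.21) and -0.20 (-0.26 to -0.15), and TUBGCP3 to TUBGCP6 ranged from -0.04 to 0.15 in the knockdown library and from -0.19 to 0.02 in the inhibitor library.

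TUBD1 and TUBE1, the centriolar delta and epsilon tubulins, both had intervals above 0 in the inhibitor library, where 23.1% of all genes did so. At 1.2-fold, 1 of the 2, TUBE1, was higher in each comparison. The shares of all genes were 19.1% in the knockdown library and 13.2% in the inhibitor library. TUBE1 had 373, 592 and 623 reads and changed by 0.33 (0.15 to 0.53) in the knockdown library and 0.40 (0.21 to 0.59) in the inhibitor library. TUBD1 had 403, 454 and 608 reads and changed by -0.16 (-0.36 to 0.04) and 0.25 (0.07 to 0.44).

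Among these lists, the largest single changes were in proteins that bind microtubules, in the knockdown library. Of 25 listed genes of this kind, 3 were at least 2-fold lower, against 2.94% of all genes, and 1 was at least 2-fold higher, against 3.42%. MAP1B, a large stabilizing protein of axons, had 1248 reads in the control library, 154 in the knockdown library and 1691 in the inhibitor library, a change of -3.34 (-3.60 to -3.11) in the knockdown library. MAP2, a stabilizer of dendrites, had 810, 445 and 1092 reads and changed by -1.19 (-1.37 to -1.03). CLIP2, which tracks growing plus ends, had 3152, 1762 and 4077 reads and changed by -1.17 (-1.26 to -1.09).

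MAPRE3, an end-binding protein, followed at -0.65 (-0.93 to -0.38). The gene that was higher was MAP7, a kinesin recruiter named after its values were seen, which had 7, 80 and 5 reads. In the inhibitor library the 4 lower genes had changes between 0.03 and 0.10, with intervals that included 0. The list median was -0.10 in the knockdown library and 0.05 in the inhibitor library, beside 0.0013 and 0.0024 for all genes. Of the 25 genes, 0 were 2-fold lower in the inhibitor library, against 1.13% of all genes, and 1 was higher, against 1.39%. This was MAP7D2, which had 5, 11 and 25 reads and was also named after its values were seen.

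Of 18 listed enzymes that modify tubulin, 0 changed by 2-fold, against 6.37% of all genes in the knockdown library and 2.52% in the inhibitor library. At 1.2-fold, 4 were higher and 4 lower in the knockdown library, against 19.1% and 18.2% of all genes. After the inhibitor 0 were higher and 4 lower, against 13.2% and 14.4%. TPGS1, a subunit of the glutamylase complex that acts on the tubulin tails, had 132, 306 and 159 reads and changed by 0.88 (0.58 to 1.19) in the knockdown library and by -0.07 (-0.41 to 0.27) in the inhibitor library. Of 7 listed proteins that destabilize or sever microtubules, 0 changed by 2-fold either, against the same 6.37% and 2.52% of all genes. At 1.2-fold, 1 was higher and 2 were lower in the knockdown library, against 19.1% and 18.2% of all genes. In the inhibitor library 0 were higher and 1 lower, against 13.2% and 14.4%. STMN3, a stathmin that sequesters tubulin dimers, had 4745, 9247 and 6039 reads and changed by 0.63 (0.58 to 0.68) in the knockdown library, with 0.0069 (-0.05 to 0.06) in the inhibitor library.

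**Figure D5:**
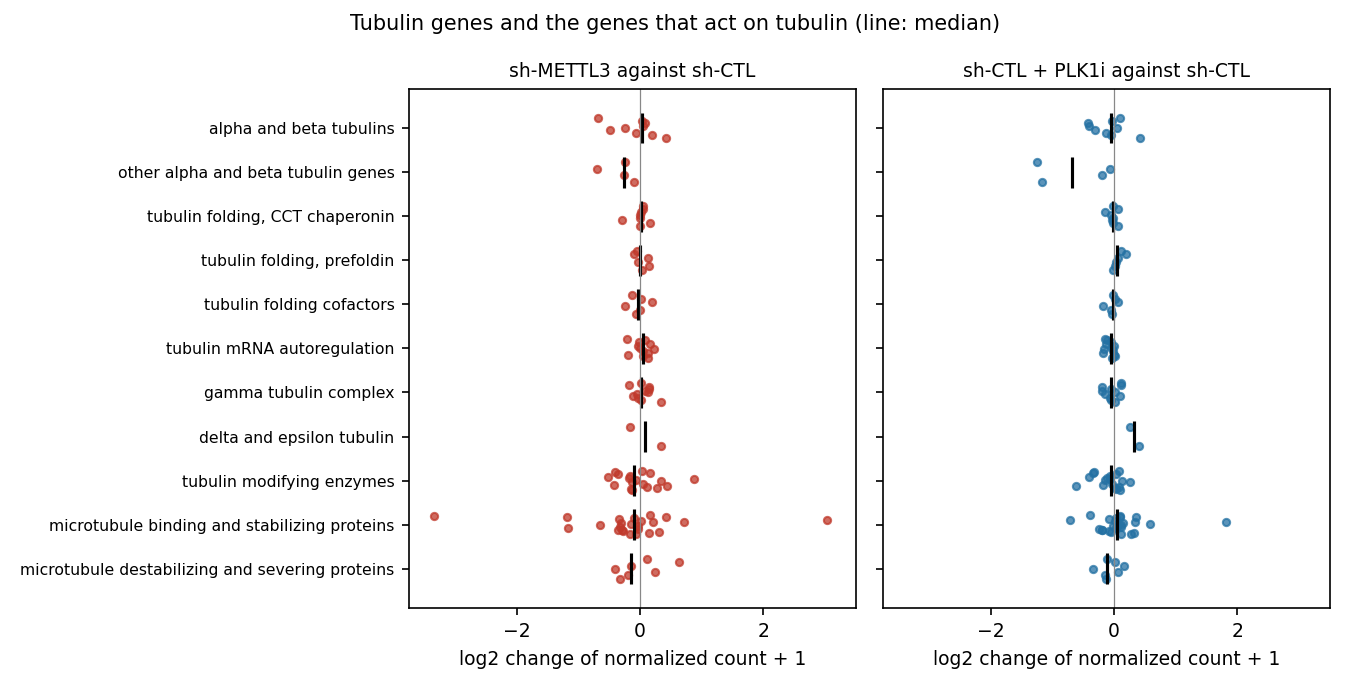
Log2 change of every listed gene (points) in the tubulin family and in the groups of genes that fold, degrade, nucleate, modify or bind tubulin, with the median of each group (line), in sh-METTL3 (left) and sh-CTL + PLK1i (right). The widest spread was among microtubule binding proteins in sh-METTL3, from MAP1B at -3.34 to MAP7 at 3.04.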

How the data were processed

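For the 3 libraries, the authors deposited a single table of log2 values; the submitters' processing notes name FastQC 0.11.9, STAR 2.7.10, RSEM 1.3.3 and the hg19 build, without their roles, and the kit was a stranded polyadenylated RNA kit. The deposited log2 values were those of a scaled read count plus 4. Undoing this gave whole reads: 100% of values under 2000 reads lay within 0.1 of a whole number, and the largest are good to a few reads. With 1 library per group no count test was run. Changes were taken on the log2(normalized count + 1) scale, which understates those of low genes, with exact Clopper-Pearson counting intervals at 95%. Intervals cover counting error only. They treat each read as independent, which amplified reads are not, so they may be too narrow even for counting error. Positions, lengths and coding sequences came from GENCODE 44 on GRCh37, in which 14744 of 14949 gene identifiers had a position. Depth was 37449251 to 47727600 reads in listed genes.

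Members and gene lists were chosen with earlier results of these data known. Named genes were METTL3, PLK1, all members, the other tubulin genes listed, and, from each list, genes whose mean count reached 100 and that changed by 1.5-fold, or otherwise the gene with the largest change in each comparison. TTC5, CNOT1, CNOT2, MAP7, MAP7D2 and TUBGCP3 to TUBGCP6 were named outside this rule, with their values seen. Alternatives were other pseudocounts, scalings, folds, lengths and neighbour numbers. Protein identity was not computed, and coding identity was given instead. The ends of the alpha coding sequences are not reported here.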

Additional observations from a re-analysis of the deposited data

How the results depend on the processing

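No paired analysis was possible because each group held 1 library, and no library could be left out. With pseudocounts of 4 and 10 and with other scalings, 49 of 54 values of single members in sh-METTL3 and 52 of 54 in sh-CTL + PLK1i stayed within their counting interval, 0 changed sign, and the largest shift was 0.02 on the log2 scale. Some of these settings could hardly move a value. The pseudocounts are small beside the counts of the members, and a recomputed scaling by the median of gene ratios gave nearly the deposited one. The median member in sh-METTL3 became 0.045 with upper quartile scaling and 0.042 with scaling to genes whose mean reached 1000. Under the same pair of scalings the sh-METTL3 totals became 0.044 and 0.041 for alpha, 0.045 and 0.042 for beta, and 0.045 and 0.041 for both. In sh-CTL + PLK1i the upper quartile gave -0.16, -0.23 and -0.20 for alpha, beta and both, total count scaling gave -0.22 for beta and -0.19 for both, genes whose mean reached 1000 gave -0.19 for both, and levels per kilobase of canonical transcript gave -0.10, -0.17 and -0.14. Members past a fold were 1 at 1.5-fold and 3 at 1.2-fold in sh-METTL3, and 4 at 1.2-fold in sh-CTL + PLK1i. With 5 neighbours on each side, 2 members (TUBA1A and TUBB2B) lay outside the range of their neighbours in sh-METTL3, against 0 with 10. Summing near-identical copies, an alternative chosen after seeing the data, turned the sign of TUBA1A (0.024 in sh-METTL3, -0.14 in sh-CTL + PLK1i) and of TUBB2A in sh-CTL + PLK1i (-0.026), since the more abundant copies set the sum. The TUBB share of beta in sh-CTL, sh-METTL3 and sh-CTL + PLK1i was 37.3%, 37.2% and 30.2% with the median coding transcript length, 56.6%, 57.5% and 49.4% in reads and 46.4%, 47.2% and 39.4% with the canonical length, chosen after seeing the data. The TUBA1B share of alpha was 84.7%, 84.7% and 87.5%, 65.4%, 65.5% and 70.5%, and 75.5%, 76.0% and 79.1% in the same order. Under other scalings, 8 values for METTL3 stayed within its counting interval. The 80 values for companion list medians stayed within a band set from the counting intervals of the 2 genes nearest each median. That band is wide for lists of genes with few reads and is not the error of the median.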

Other observations

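Keratins and vimentin form intermediate filaments, and their listed marker genes went opposite ways in the knockdown library. The keratin genes KRT8, KRT18 and KRT19 had log2 changes of 0.26, 0.27 and 0.43 there and of -0.10, -0.09 and -0.06 in the inhibitor library. VIM, the mesenchymal filament gene, had 209892 reads in the control library, 199813 in the knockdown library and 267673 in the inhibitor library, with changes of -0.40 and 0.0098. ZEB1, a transcription factor of mesenchymal cells, had 2510, 3752 and 4169 reads, with changes of 0.25 and 0.39. These values describe 1 library per group.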
